A study of Mus musculus with 6 samples.

Results

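The circadian clock genes Per1, Per2, Per3, Cry1, Cry2, Arntl, Clock, Nr1d1, Nr1d2 and Dbp were followed in the dissected amygdala of 6 mice, each measured on 1 microarray. Members were taken by gene symbol in the platform annotation. These are 10 of the 18193 genes that the annotation pairs with a probe set of their own, and they had 23 probe sets of the 45101 in the deposited table, and 18 of them, from 9 genes, passed the filter on low values (a mean log2 level of at least 4 over all arrays) and were tested. The only probe set of Nr1d1 lay below it, as did 1 of 3 for Per2, 2 of 6 for Per3 and 1 of 2 for Nr1d2. The mice were male, 8 to 10 weeks old and of the inbred strain 129S1/SvImJ (S1). Of these, 3 received a zinc diet (replicates 3, 7 and 10, numbered as in the sample titles) and 3 a control diet (replicates 1, 9 and 11), and all 6 were killed 2 h after fear extinction training. How much zinc either diet held, the time of day of training and killing, and what the title number counts are not stated in the labels used here.

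The mammalian clock is a feedback loop of transcription. Arntl (also called Bmal1) and Clock encode partner activators that bind E-box sequences and turn on the Per, Cry, Nr1d and Dbp genes. PER and CRY proteins then inhibit that pair, the nuclear receptors NR1D1 and NR1D2 (REV-ERB alpha and beta) repress Arntl through ROR elements, and DBP activates Per genes through D-boxes. In many mouse tissues Arntl therefore peaks near the start of the day, opposite to Per, Nr1d and Dbp, which peak between the middle of the day and its end; these are called morning-phase and evening-phase genes here. Per1 and Per2 also respond directly to glucocorticoids and to neuronal activity, and in rats PER2 protein cycles in opposite phase in the central and the basolateral amygdala.

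Promoter windows of 4 members that held matches to elements of this loop are printed here. They are from RefSeq on GRCm38.p6, read 5′ to 3′ on the gene's strand, and end just before the listed transcript start (for Per3, before the outermost start of the gene). Capitals mark matches on either strand to the E-box CACGTG, the variant E-box CACGTT, the D-box TTATGNAA and the ROR core AGGTCA.
Per1 chr11:69098699-69098948, plus strand: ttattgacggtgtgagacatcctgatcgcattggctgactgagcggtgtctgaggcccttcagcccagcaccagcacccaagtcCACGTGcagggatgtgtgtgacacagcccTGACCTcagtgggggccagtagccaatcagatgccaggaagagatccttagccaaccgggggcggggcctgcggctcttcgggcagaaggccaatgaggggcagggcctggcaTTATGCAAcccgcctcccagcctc
Per3 chr4:151044708-151044915, minus strand: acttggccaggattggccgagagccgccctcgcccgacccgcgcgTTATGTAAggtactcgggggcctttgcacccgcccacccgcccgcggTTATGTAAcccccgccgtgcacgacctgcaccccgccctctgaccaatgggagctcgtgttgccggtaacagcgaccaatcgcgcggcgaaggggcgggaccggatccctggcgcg
Cry1 chr10:85185055-85185304, minus strand: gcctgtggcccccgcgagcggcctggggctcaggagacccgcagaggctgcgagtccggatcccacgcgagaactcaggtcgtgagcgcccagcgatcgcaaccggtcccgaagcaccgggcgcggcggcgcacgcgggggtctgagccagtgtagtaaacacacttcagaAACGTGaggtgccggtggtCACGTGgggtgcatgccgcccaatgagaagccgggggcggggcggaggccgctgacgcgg
Nr1d1 chr11:98775378-98775627, minus strand: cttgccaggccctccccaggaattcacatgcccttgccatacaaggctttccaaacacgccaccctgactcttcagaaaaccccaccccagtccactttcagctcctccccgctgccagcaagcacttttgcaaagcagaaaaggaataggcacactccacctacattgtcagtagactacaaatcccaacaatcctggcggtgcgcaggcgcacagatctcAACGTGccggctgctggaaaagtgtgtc
The Per1 window, at the first of its 2 listed starts, held an E-box from -166 to -161, a ROR core from -137 to -132 and a D-box from -24 to -17, counted from the start site. Per3 held a pair of D-boxes, from -205 to -198 and from -158 to -151. Cry1 held an E-box from -60 to -55 beside a variant E-box from -79 to -74, and Nr1d1 held a variant E-box from -28 to -23. Windows in the table were searched over their whole 250 bases upstream, whereas the printed Per3 window is cut to 208 bases. Of 32851 such windows, 6.02% held the E-box, 3.85% the variant E-box, 3.07% the D-box and 14% the ROR core. Members with a window numbered 9 of 10 (Per2 had none), and among their 13 windows the E-box was in 2, the variant in 3, the D-box in 2 and the ROR core in 3. The windows of Arntl and Dbp held no match to any of these elements, and the ROR cores lay in windows of Per1, Clock and Nr1d2. A match is a description of these letters only.

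The arrays were alike, with medians of 4.04 to 4.09 on the log2 scale and pairwise correlations from 0.991 to 0.996 across probe sets. Amygdala excitatory neuron markers were measured at mean log2 levels of 9.64 to 9.90 in zinc diet mice and 9.46 to 9.64 in controls. These means hide opposite differences among the 6 tested. Rspo2 and Neurod6 were higher in every zinc diet mouse (by 0.77 and 0.67). Lmo3 and Camk2a were lower in every one (by -0.43 and -0.17), and Slc17a7 and Dkk3 overlapped. Markers of striatal spiny neurons were at 8.49 to 8.94 in zinc diet mice against 6.98 to 7.37 in controls. Each of the 6 tested was higher in every zinc diet mouse. The striatum borders the amygdala, and which tissue or cells gave this signal was not tested. Of 6 central amygdala markers, Scn4b, a sodium channel subunit gene also active in striatum, was higher in every zinc diet mouse (by 3.41) and Cartpt, a neuropeptide gene, lower in every one (by -0.90). Without Scn4b the mean of the list was 8.71 to 8.79 in zinc diet mice against 8.36 to 8.96 in controls. Choroid plexus markers were at 5.62 to 6.56 in zinc diet mice against 6.09 to 9.28 in controls, highest in control replicate 9. The ranges of GABA neuron, astrocyte, myelin, endothelial, microglial and hypothalamic markers overlapped between diets. The part of all these cell types in the clock gene values below was not tested. In dissected tissue, fewer cells of a type and less RNA per cell cannot be told apart.

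Mean clock gene levels differed between the diets by at most 0.32 log2 units, with wide confidence intervals. The median size of a diet difference over all tested probe sets was 0.087. Per2 had the largest difference of the 9 tested genes and Per1 the smallest, and on the probe set with the highest mean all members except Per1 were higher on average in zinc diet mice. In limma, with p-values adjusted over all 22877 probe sets tested (Benjamini-Hochberg), 0 of the 18 clock probe sets passed 0.05, where 0% of all probe sets did. At an unadjusted p under 0.05 there was 1 of 18, against 6.38% of all. In 12 of 18 the zinc diet mean was higher, against 53% of all. The diets did not overlap in 2 of 18, against 12% of all, and in both the zinc diet mice were above, against 6.66% of all. The median difference was 0.084 over the 18 and 0.13 over the 9 tested genes, each taken at its probe set with the highest mean (the representative probe set), against 0.0091 over all probe sets. For 17 of the 18 the 95% confidence interval spanned 0.

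**Figure D1:**
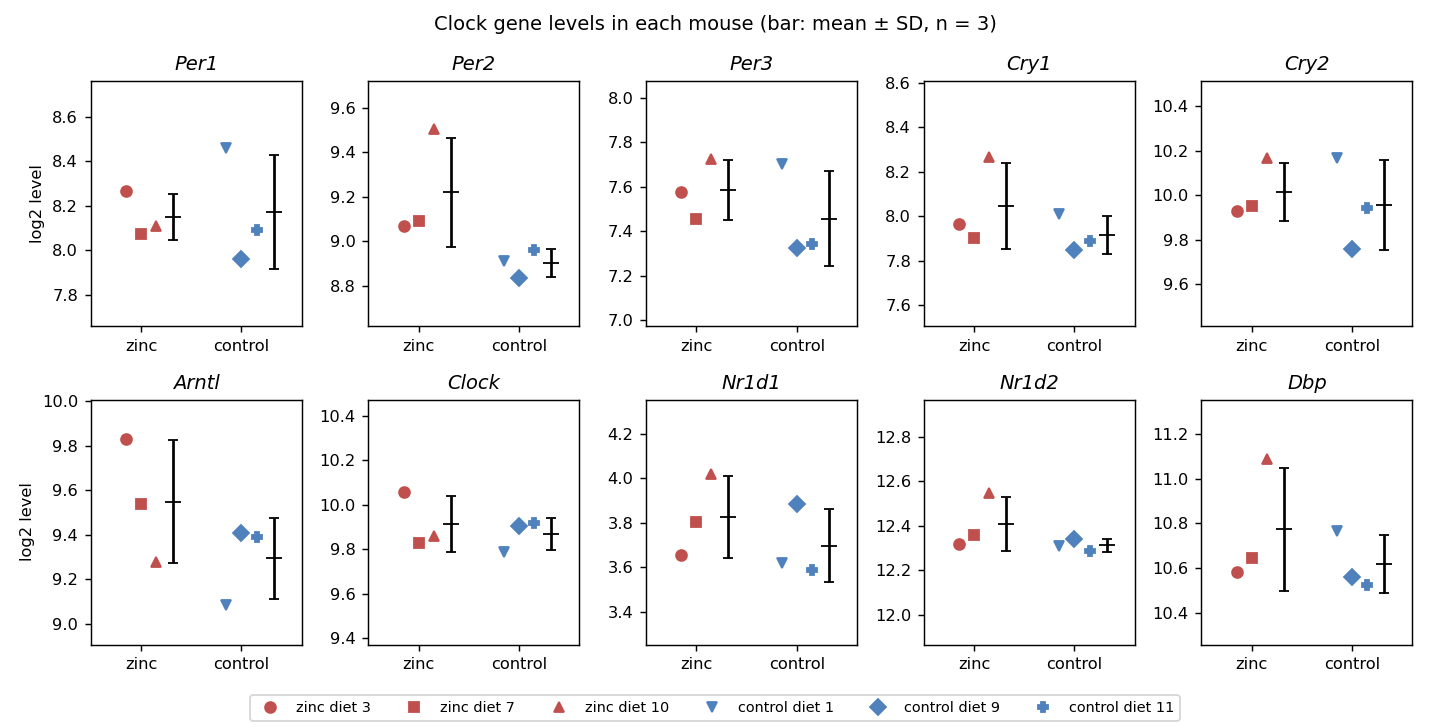
Log2 level of the representative probe set of each clock gene in each mouse, zinc diet at the left and control diet at the right of each panel. Symbols mark mice by title number, black bars give mean ± SD (n = 3), and every panel spans the same height on the log2 scale. Zinc diet replicate 10 is the highest mouse for Per2, Per3, Cry1, Nr1d2 and Dbp.

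Arntl, the activator whose RNA swings most in the loop, had log2 levels of 9.83, 9.54 and 9.28 in zinc diet replicates 3, 7 and 10, against 9.08, 9.41 and 9.39 in control replicates 1, 9 and 11. Zinc diet replicate 3 was highest and control replicate 1 lowest, and the diets overlapped. The means were 9.55 ± 0.28 and 9.29 ± 0.18 (SD, n = 3 each), a difference of 0.25 ± 0.16 (SE, limma adjusted p = 0.85) with a confidence interval from -0.13 to 0.64. It was 0.11 without zinc diet replicate 3 and 0.39 without zinc diet replicate 10. The other Arntl probe set, near the filter at a mean of 4.10, differed by 0.089 ± 0.088.

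Clock, the partner of Arntl and a gene whose RNA cycles weakly in most tissues, had 10.06, 9.83 and 9.86 in zinc diet mice against 9.79, 9.90 and 9.92 in control mice. Its order of extremes was that of Arntl, highest in zinc diet replicate 3 and lowest in control replicate 1, over a range of only 0.27. The difference was 0.045 ± 0.091 (limma adjusted p = 0.96). Its 3 other probe sets gave 0.10, 0.079 and -0.035, and on the one at 0.10 the diets did not overlap, though by small margins (9.47 to 9.54 in zinc diet mice against 9.28 to 9.47 in controls).

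Per2, an inhibitor of the activator pair, had 9.07, 9.09 and 9.50 in zinc diet mice against 8.91, 8.84 and 8.96 in control mice. Every zinc diet value exceeded every control value, and zinc diet replicate 10 was the highest by a wide margin. The means were 9.22 ± 0.25 and 8.90 ± 0.062 (SD, n = 3 each). The difference was 0.32 ± 0.13 (SE), or 1.25-fold, with a confidence interval from 0.011 to 0.63, an unadjusted p of 0.044 and a limma adjusted p of 0.78. Without zinc diet replicate 10 it was 0.18. The other tested probe set of Per2, called its second probe set here, showed a different order of mice, with 5.50, 5.08 and 5.17 in zinc diet mice against 5.90, 4.98 and 4.96 in control mice, and a difference of -0.032 ± 0.27 (SE).

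Per1, the PER gene known for the fastest induction by stimuli, had 8.27, 8.07 and 8.11 in zinc diet mice against 8.46, 7.96 and 8.09 in control mice. Zinc diet replicate 3 and control replicate 1 were its 2 highest mice, and the diets overlapped with a difference of -0.020 ± 0.14 (SE, limma adjusted p = 0.99). Per3, the PER gene least needed for rhythm in mice, had 7.58, 7.46 and 7.72 against 7.70, 7.33 and 7.34. Its difference was 0.13 ± 0.13 (limma adjusted p = 0.91; 0.059 on leaving out zinc diet replicate 10, and 0.25 on leaving out control replicate 1), while its 3 other tested probe sets gave -0.054, -0.12 and -0.16, so that the sign depended on the probe set.

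Cry1, a strong inhibitor of the activator pair whose RNA peaks later than Per, had 7.96, 7.90 and 8.27 in zinc diet mice against 8.01, 7.85 and 7.89 in control mice. Its difference was 0.13 ± 0.11 (SE, limma adjusted p = 0.90), and 0.018 without zinc diet replicate 10. Cry2, the weaker cycling paralogue, had 9.93, 9.95 and 10.16 against 10.16, 9.76 and 9.94, a difference of 0.059 ± 0.12 (limma adjusted p = 0.96). Zinc diet replicate 10 was high for both, and control replicate 9 was the lowest mouse for both.

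Nr1d2, a repressor of Arntl, had 12.32, 12.36 and 12.55 in zinc diet mice against 12.31, 12.34 and 12.29 in control mice. The control mice lay close together (SD 0.028) while zinc diet replicate 10 stood apart, and the difference was 0.095 ± 0.086 (SE, limma adjusted p = 0.90), or 0.025 without that mouse. Nr1d1, its paralogue, was listed at 3.65, 3.80 and 4.02 against 3.62, 3.88 and 3.59, values that cannot be told from background here. Dbp, the output factor that acts through D-boxes, had 10.58, 10.65 and 11.09 against 10.77, 10.56 and 10.52. Its difference was 0.16 ± 0.15 (limma adjusted p = 0.90), its other probe set gave 0.22 ± 0.15, and without zinc diet replicate 10 the difference of the first was -0.0024.

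**Figure D2:**
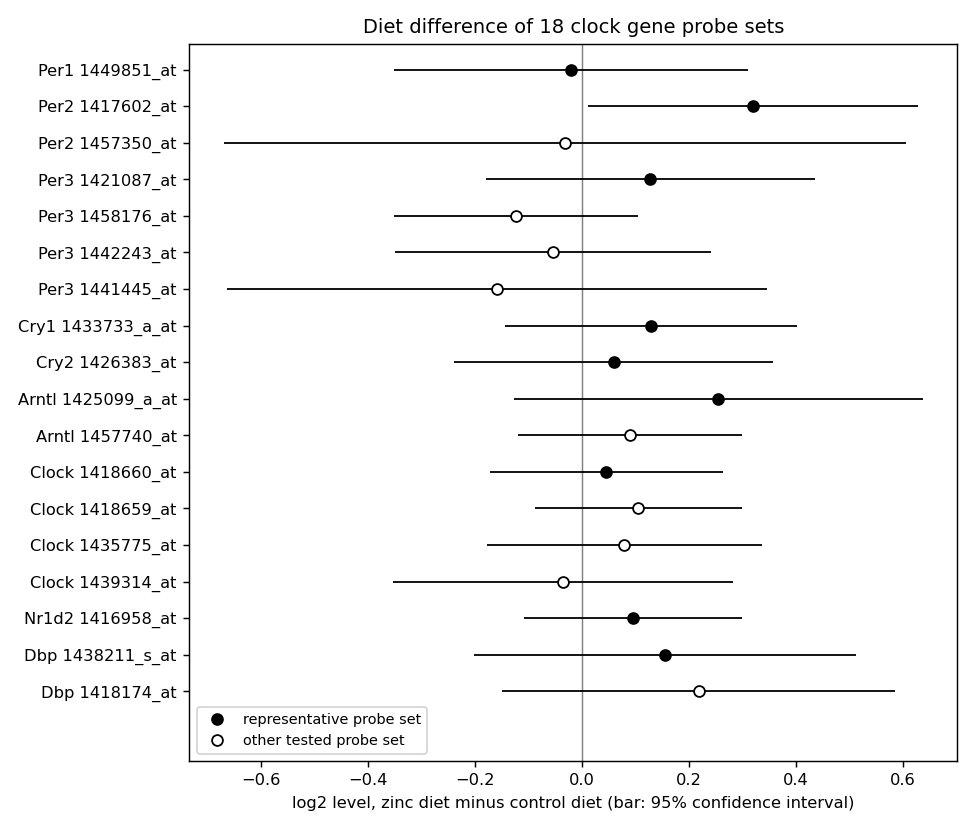
Difference in log2 level, zinc diet minus control diet, for the 18 tested clock probe sets, with 95% confidence intervals from limma; filled points are representative probe sets and open points the other tested ones. The interval of the representative Per2 probe set, from 0.011 to 0.63, is the one that does not span 0.

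Clock gene levels also varied between single mice. Over the 6 mice the range of a representative probe set ran from 0.26 (Nr1d2) to 0.75 (Arntl), beside a median range of 0.31 for all tested probe sets with a mean of at least 7. Zinc diet replicate 10 was the highest mouse for 5 of the 9 tested genes, among them 4 of the 5 tested evening-phase genes, and for 8 of the 18 tested probe sets, where it was highest for 19.1% of all probe sets tested. Control replicate 9 or 11 was the lowest mouse for 7 of the 9 tested genes and for 12 of the 18 tested probe sets, against 38.6% of all. This count by mouse was made after the values were seen.

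To set the phases against each other within each mouse, the level of every representative probe set was centred on its mean over the 6 mice. The mean of Arntl and Clock was then compared with that of Per1, Per2, Per3, Nr1d1, Nr1d2 and Dbp. Morning minus evening was 0.30, 0.046 and -0.33 in zinc diet replicates 3, 7 and 10, against -0.26, 0.11 and 0.12 in control replicates 1, 9 and 11. Zinc diet replicate 3 thus stood at the morning side, with its morning-phase genes at 0.29 and its evening-phase genes at -0.016. Zinc diet replicate 10 and control replicate 1 stood at the evening side, the one mainly through high evening-phase genes (0.24) and the other mainly through low morning-phase genes (-0.22). The diet means were 0.0078 ± 0.32 and -0.0078 ± 0.21 (SD, n = 3 each), so their difference of 0.016 was far smaller than the spread within either diet. Without Nr1d1 the values were 0.28, 0.059 and -0.32 in zinc diet mice against -0.29, 0.15 and 0.12 in controls. No p is given for a score over chosen genes. With Arntl set against Dbp alone, the 6 values were 0.52, 0.16 and -0.54 in zinc diet mice against -0.41, 0.12 and 0.14 in control mice.

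**Figure D3:**
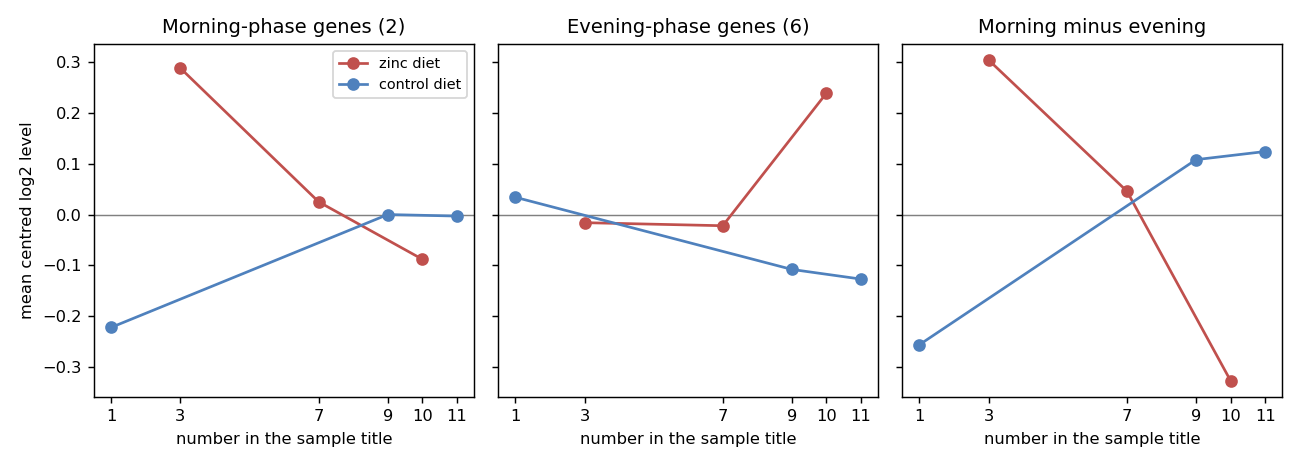
Mean centred log2 level of the 2 morning-phase genes, of the 6 evening-phase genes and their difference, 1 point per mouse, plotted against the number in the sample title. Lines join mice of a diet; the difference falls with the number in zinc diet mice (0.30 to -0.33) and is lowest in control replicate 1 (-0.26) among control mice.

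Along the title number the representative probe sets of Arntl and Dbp ran in opposite directions in the 2 diets. From the lowest to the highest number, Arntl changed by -0.078 log2 units per number in zinc diet mice against 0.033 in controls. Dbp showed the reverse, 0.069 in zinc diet mice against -0.025 in controls. On representative probe sets Clock had the same signs as Arntl, and Per3, Cry1, Cry2 and Nr1d2 the same signs as Dbp. The share of all probe sets with opposite signs in the 2 diets was not counted. Control replicates 9 and 11 lie close in number, so control slopes rest largely on control replicate 1 (for Arntl 9.08 against 9.41 and 9.39). Nr1d2 was nearly flat in controls (-0.00025). Per1 fell in both diets, while Per2 and Nr1d1 rose in both. The other Dbp probe set kept its signs (0.079 and -0.021), but the other Arntl probe set fell in both diets (-0.033 and -0.011). No other Clock probe set had the signs of Arntl, and the next brightest reversed them (0.0027 and -0.015). Other tested Per3 probe sets kept the signs or fell in both diets. In a limma fit with a diet by number term, added after these values were seen and with 0% of probe sets past an adjusted p of 0.05 (8.62% at an unadjusted p under 0.05), the slopes differed by -0.11 ± 0.021 (SE) for Arntl and by 0.094 ± 0.028 for Dbp. Neither passed (unadjusted p = 0.0038 and 0.024, limma adjusted p = 0.58 for both), and each slope rests on 3 mice.

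Nfil3, a D-box repressor that opposes DBP and, like Arntl, is a target of the NR1D receptors, followed the same course as Arntl. It had 6.71, 5.96 and 5.43 in zinc diet replicates 3, 7 and 10, against 5.87, 6.09 and 6.09 in control replicates 1, 9 and 11. All of its range of 1.28 lay among the zinc diet mice. Its slope difference of -0.21 ± 0.020 (SE) had the smallest unadjusted p of all 22877 probe sets (2.28e-04), yet a limma adjusted p of 0.58. The mean difference between diets was 0.017 ± 0.30. Nfil3 was singled out after its values were seen.

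Shared slopes along the title number, with diet in the fit, were small for most members. In limma none (0) of the 18 reached the adjusted threshold, against 0.00437% of all (1 probe set, of Gnas, named after its value was seen), and 2 passed an unadjusted p under 0.05, against 10.2%. Those 2 were Per1 and the second Per2 probe set, both falling with the number. Per1 fell by 0.038 ± 0.013 per number (SE, unadjusted p = 0.028, limma adjusted p = 0.40), and without control replicate 1 its slope was -0.017. The Per2 probe set fell by 0.085 ± 0.017 (unadjusted p = 0.0022, limma adjusted p = 0.21), with a slope of -0.047 without control replicate 1. On its representative probe set Per2 had a slope of 0.019 ± 0.017, so the 2 probe sets of that gene pointed in different directions.

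Most activity-induced genes had the same sign of slope as those 2 probe sets. Of 13 tested, 12 had a slope below 0 (46.3% of all probe sets did). In limma 7 of these had an unadjusted p under 0.05, against 10.2% of all in either direction, and 0 passed the adjusted threshold. The median slope was -0.055, against 0.0014 over all probe sets. Arc, which encodes a synaptic cytoskeletal protein, had 8.45, 7.22 and 7.14 in zinc diet mice against 8.18, 6.83 and 7.05 in control mice, a slope of -0.15 ± 0.028 (SE, limma adjusted p = 0.20). Fos, a transcription factor gene induced by firing, had 10.91, 9.51 and 9.67 against 10.73, 9.80 and 9.66, a slope of -0.13 ± 0.031 (limma adjusted p = 0.25). Both were highest in zinc diet replicate 3 and control replicate 1, the same 2 mice as for Per1. Nr4a1 and Egr2, activity-induced transcription factor genes, had slopes of -0.098 ± 0.019 and -0.077 ± 0.016 (limma adjusted p = 0.21 and 0.22). Zinc diet replicate 3 and control replicate 1 both lay above the other 4 mice for 8 of the 13 activity-induced genes and for 2 of the 18 clock probe sets, against 7.16% of all probe sets, a count made after the values were seen. Of 4 tested hypothalamic markers, Avp and Oxt, the vasopressin and oxytocin genes, were also highest in these 2 mice. Avp had 9.84, 9.14 and 4.73 in zinc diet mice against 10.96, 4.38 and 5.63 in control mice, a slope of -0.64 ± 0.12 (SE, unadjusted p = 0.0013, limma adjusted p = 0.19). The part of neighbouring tissue in these slopes was not tested.

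**Figure D4:**
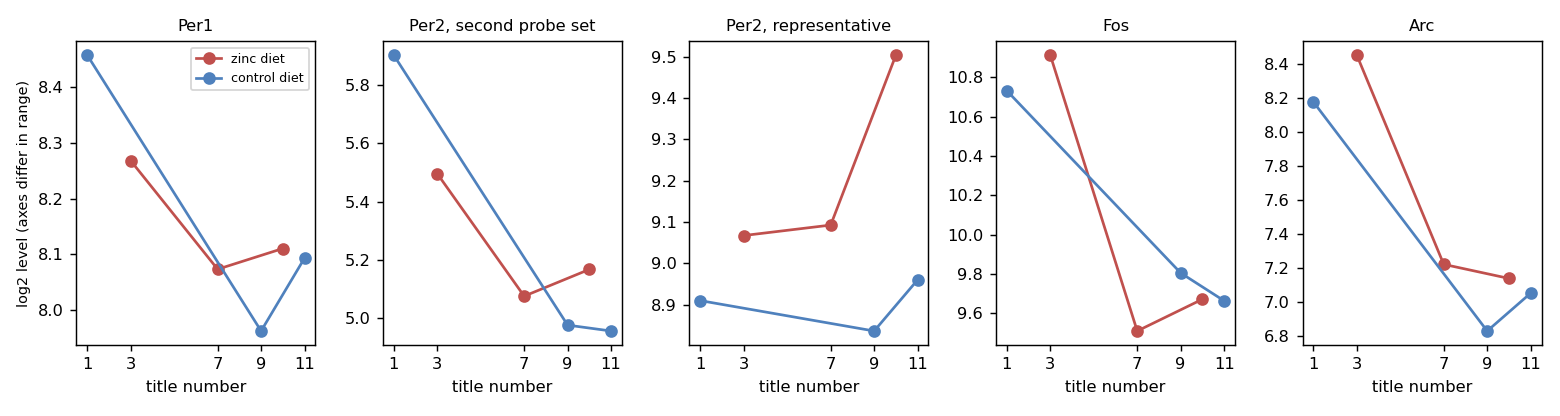
Log2 level against the number in the sample title for Per1, both tested Per2 probe sets, Fos and Arc, 1 point per mouse, with lines joining mice of a diet and a separate vertical range in each panel. Per1, the second Per2 probe set, Fos and Arc are all higher in zinc diet replicate 3 and control replicate 1 than in the other 4 mice, and the representative Per2 probe set is not.

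By diet, 11 of the 13 activity-induced genes had higher zinc diet means (median difference 0.11), against 53% of all probe sets, and 0 passed. At an unadjusted p under 0.05 in limma there were 3, against 6.38% of all. Those with an unadjusted p under 0.05 were Nr4a2, a nuclear receptor gene (0.40 ± 0.099 SE), Crem, a cyclic AMP-responsive factor gene (0.36 ± 0.12), and Fosb (0.22 ± 0.083), with limma adjusted p of 0.55, 0.72 and 0.76. All 4 tested probe sets of Nr4a2 were higher in every zinc diet mouse, against 6.66% of all, and its dimmer untested ones overlapped between diets. The other tested Crem probe set differed by -0.18 and the mean of the Crem probe sets by 0.092. Glucocorticoid-responsive genes, which read the hormone that can also induce Per1, gave 6 of 11 higher, against 53% of all probe sets. Their median difference was 0.031 and their median slope 0.00056. None of these 11 had an unadjusted p under 0.05 in either limma fit. Of the list's 25 tested probe sets, 2 were higher and 1 lower by diet at that threshold, against 6.38% of all. These were of Klf9 (0.20 and 0.27) and Nfkbia (-0.34). Every tested Klf9 probe set had a higher zinc diet mean, while those of Nfkbia differed in sign. Along the number 1 rose and 2 fell at that threshold, against 10.2% of all. Fkbp5, which encodes a chaperone of the glucocorticoid receptor, had 9.57, 9.62 and 9.95 against 9.60, 9.61 and 10.00, and Sgk1, a kinase gene induced by the hormone, 11.23, 11.75 and 11.18 against 11.40, 11.04 and 11.14. Zinc diet replicate 3 and control replicate 1 were both above the other mice for 0 of the 11, and for 1 of the list's 25 tested probe sets, a second one of Cdkn1a, a cell cycle inhibitor gene (5.54, 5.40 and 5.28 against 5.43, 5.27 and 5.28).

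**Figure D5:**
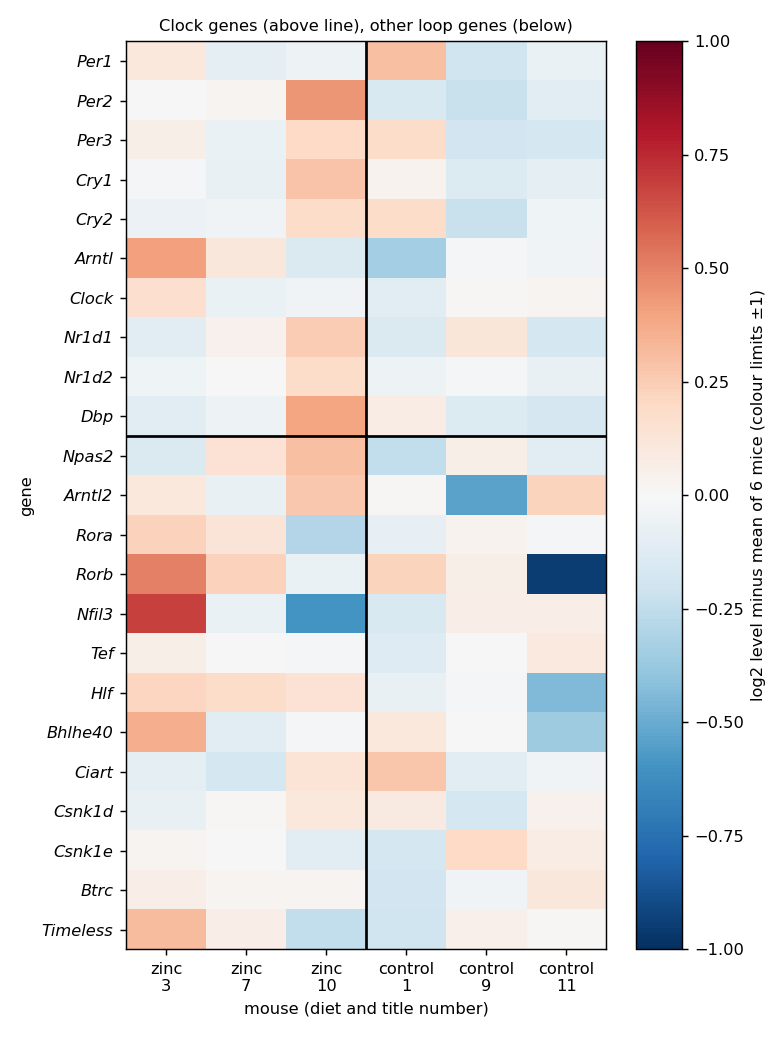
Log2 level minus the mean of the 6 mice for the 10 clock genes (above the line) and 13 other tested genes of the loop (below it), with zinc diet mice in the left columns and control mice in the right. Red is above and blue below the mean, with colours clipped at 1; in zinc diet replicates 3 and 10 Arntl and Nfil3 have opposite colours to Dbp and Nr1d2.

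Among 17 other clock loop genes, 13 were tested and 0 passed in limma. Of these 13, 11 had higher zinc diet means (median difference 0.078), against 53% of all probe sets. Hlf, which encodes a D-box activator related to DBP, had 9.65, 9.62 and 9.58 in zinc diet mice against 9.36, 9.42 and 8.99 in control mice. It was higher in every zinc diet mouse, by 0.36 ± 0.12 (SE, unadjusted p = 0.022, limma adjusted p = 0.72), and by less, 0.23, without control replicate 11. Npas2, which can stand in for CLOCK, differed by 0.20 ± 0.14, with 7.95, 8.24 and 8.40 against 7.85, 8.16 and 7.99. The slopes of Rorb, a ROR family gene, and of Bhlhe40, an E-box repressor gene, were -0.087 ± 0.029 and -0.043 ± 0.017 per title number (limma adjusted p = 0.38 and 0.46). The other tested Rorb probe sets had slopes of 0.017 and -0.0072, the mean of the Rorb probe sets -0.026, and the first probe set -0.047 without control replicate 11.

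Of 12 rhythmic output genes, 2 of which (Sgk1 and Tsc22d3) were also in the glucocorticoid list, 10 were tested and 0 passed either limma fit. Gne, an enzyme gene of sialic acid synthesis, was lower in every zinc diet mouse (6.02, 6.21 and 6.09 against 6.22, 6.37 and 6.42; difference -0.23 ± 0.090 SE, limma adjusted p = 0.77). Its other tested probe set differed by 0.0046, with the diets overlapping, and the mean of its probe sets by -0.11. Tspan4 had a slope of 0.051 ± 0.019 per number (limma adjusted p = 0.44), and 0.016 without control replicate 1. Cirbp, a cold-inducible RNA-binding protein gene, had 9.52, 9.51 and 10.05 against 10.06, 9.81 and 9.72. Its 2 highest mice, zinc diet replicate 10 and control replicate 1, were the 2 with the most negative morning minus evening values. Cirbp was singled out after its values were seen, and the share of all probe sets highest in this pair was not counted.

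The genes most like the evening-phase mean over the 6 mice, among 2512 genes with a range of at least 0.5, were Fli1 (Pearson r = 0.978), Scyl2 (0.971), Plekha6 (0.969), Npat (0.962) and Mdc1 (0.952). The most opposite were Ints10 (-0.990), Map2k2 (-0.976), Tmem98 (-0.970), Hdlbp (-0.966) and P2ry13 (-0.963). These values describe 6 arrays that share a platform and normalisation, and carry no test. Zinc diet replicate 10 was the highest mouse for each of the most similar genes and the lowest for each of the most opposite. The evening-phase mean itself was 0.24 in that mouse against -0.13 to 0.034 in the others. Map2k2, a kinase gene of the MAP kinase cascade, was at 8.71, 8.69 and 7.60 in zinc diet mice against 8.51, 8.87 and 8.87 in control mice.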

How the data were processed

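RNA from the amygdala of 6 mice was hybridised to Affymetrix Mouse430_2 arrays after 3′ labelling of 500 ng of total RNA, per the labels' protocols. The authors deposited 1 table of log2 probe set levels, a scale inferred from its range. Per the submitters' processing notes the tools included GCRMA 2.28.0 and R 2.15.1; which step each did, and any centring or filter, are not given in the sources used here. Model-based background adjustment makes differences between dim probe sets less reliable. Without detection calls, dim and absent transcripts look the same, and the number of arrays limits precision. The platform annotation, which can be old, named the probe sets, and those with several symbols were not used for named genes (Rbm3 among them).

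Control probe sets (64) were removed and probe sets with a mean of at least 4 kept (22877). Two-sided limma tests (version 3.58.1, under R 4.3.3) compared the diets in a model of diet alone, and tested the title number with diet in the fit, each adjusted by Benjamini-Hochberg over all 22877 with a threshold of 0.05. Errors marked SE are moderated standard errors. Replicates are separate mice. On simulated data with 22877 probe sets the diet fit recovered 69% of those given a true difference of 1 on the log2 scale, and the number fit 46% of those given a slope of 0.1. The members and lists were chosen with earlier results of these data known. Named from the lists were genes with an unadjusted p under 0.05 in a fit, at most 4 per list and fit by smallest p; any other gene was named with its values in view. Alternative settings covered other filters, normalisations, eBayes settings, a floor at 4, gene means, the title number as a covariate or the diet term left out, other index genes, and leaving out each mouse.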

Additional observations from a re-analysis of the deposited data

How the results depend on the processing

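No paired analysis was possible because the diets share no replicate numbers. In each of 14 alternatives for either fit, 0 of the tested clock probe sets that the setting kept passed the adjusted threshold (smallest adjusted p 0.51 for diet and 0.15 for the slope). Of 126 diet values of the representative probe sets 119 kept their sign, and of 126 slopes 111 did. Averaging the probe sets per gene turned the diet difference of Per3 (-0.052) and the slopes of Per2 (-0.033) and Clock (-0.0031). Clock had a slope of -4.2e-05 with no diet term, and Arntl 0.0026 with median centring. On leaving out 1 mouse at a time, diet differences that changed sign ranged from -0.13 (without control replicate 9) to 0.12 (without control replicate 1) for Per1, from -0.038 (without control replicate 9) to 0.16 for Cry2, from -0.0024 (without zinc diet replicate 10) to 0.25 for Dbp, from -0.027 (without zinc diet replicate 3) to 0.089 for Clock and from -0.19 to 0.28 (without control replicate 1) for the second Per2 probe set. Those that kept their sign ranged from 0.018 to 0.20 for Cry1, 0.025 to 0.14 for Nr1d2, 0.059 to 0.25 for Per3, 0.11 to 0.39 for Arntl and 0.18 to 0.40 for Per2. Slopes that changed sign ranged from -0.038 to 0.017 for Per3, -0.015 to 0.039 for Cry1, -0.026 to 0.037 for Cry2, -0.073 to 0.025 for Arntl, -0.028 to 0.013 for Clock and -0.020 to 0.063 for Dbp. The causes were not tested. The Rorb slope passed without control replicate 9 (-0.11, limma adjusted p = 0.047).

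Across all probe sets, the diet fit gave 0 past the adjusted threshold (1460 at an unadjusted p under 0.05), and 2 with a mean of at least 6, 1 with gene means, 1 with the title number as a covariate and 3 with trend and robust eBayes. At the unadjusted threshold there were 927 with gene means and 2429 with no filter, where fewer or more features were tested, and from 853 (without zinc diet replicate 7) to 2241 (without control replicate 1) on leaving out a mouse. The number fit gave 1 (2343 unadjusted), and 3 with no filter, 8 with trend and robust eBayes, 0 with a mean of at least 6, gene means, no diet term or the floor at 4, and from 0 to 165 (without control replicate 9) on leaving out a mouse. Unadjusted counts were 1398 with a mean of at least 6, 1055 with gene means and 4070 with no filter. The diet difference of the morning minus evening index ranged from -0.13 to 0.18 on leaving out a mouse, and over all 13 alternatives it moved by less than the spread between mice.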
